A study of Mus musculus with 15 samples.

Results

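The count table of a bulk RNA-seq experiment on 4T1 cells, a mouse triple-negative mammary carcinoma line, was read for 9 genes that are long and best known from neurons, namely Rbfox1, Ctnna2, Mapk10, Nrxn3, Dlg2, Cntnap2, Csmd1, Ptprd and Lsamp. They are 9 of 40402 genes in the table and were chosen by symbol with measured values in view: Rbfox1, Ctnna2 and Mapk10 were selected on being lower in treated than in untreated cells, so each treated-against-untreated value below is a description and carries no test. The 5 groups were wild-type 4T1 cells left untreated, cells given blackberry extract (BLA) or blueberry extract (BLU), and cells given gold nanoparticles made with the blackberry (BLA-A) or the blueberry extract (BLU-A). Treatment began 24 h after seeding. The table has 3 columns per group. The sequencing report supplied with the study gives a single raw read total for each group and lists its columns as subsets of reads, whereas the study's statistics section describes replicates as independent biological ones. The labels give each column a batch date of its own, so batch and group cannot be told apart.

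The columns of a group differed by less than sampling noise (chi-square per degree of freedom from 0.0951 to 0.475), and their mean was used as 1 library. Total counts per library ran from 25613711 to 26956308. The TMM scaling factor was 0.905 in BLA-A and between 1.01 and 1.03 in the other 4 libraries, and BLA-A was also the library with the most genes past the fold used here. All differences below are between single libraries, so they have no replicate check. Intervals are exact 95% intervals and cover counting error only.

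These genes encode proteins that neurons use to shape their transcripts and their contacts. Rbfox1 is an RNA-binding regulator of alternative splicing. Ctnna2 is the neuronal alpha-catenin, which ties cadherin complexes to actin, and Mapk10 is JNK3, the member of the JNK family found mainly in brain. Nrxn3, a neurexin, and Ptprd, a receptor tyrosine phosphatase, organize synapses from the presynaptic side, and Dlg2 is a postsynaptic scaffold. Cntnap2 clusters potassium channels along axons, Lsamp is a cell-surface adhesion protein of the IgLON family, and Csmd1 is a large membrane protein with CUB and sushi domains. Their coding parts are small beside their introns, and the counting used here took reads anywhere within a gene, introns included.

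On GRCm39 (GENCODE M39) the 9 genes spanned from 304 kb for Mapk10 to 2271 kb for Ptprd. Rbfox1 lies at chr16:5124665-7230343 on the plus strand, Ctnna2 at chr6:76858342-77956718 on the minus strand and Mapk10 at chr5:103055814-103359375 on the minus strand. Nrxn3 (1612 kb), Dlg2 (1973 kb), Cntnap2 (2245 kb) and Csmd1 (1643 kb) each spanned over 1000 kb, and Lsamp spanned 649 kb. RefSeq lists 2 starts of Lsamp that are 1548 kb apart, so the feature counted for Lsamp may be longer than the GENCODE span and its values per length may be too high.

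Promoter sequence is shown for Rbfox1, Ctnna2 and Mapk10, which were lower together in the treated libraries, and for Lsamp, which was higher in each of them. The RefSeq promoter table used here (GRCm38.p6) matched 7 of the 9 genes, with 15 starts in all (Csmd1 and Ptprd were not matched), and the most upstream listed start is given, as a window of 300 bases that lies mostly before the start, read in the direction of the gene. Capitals mark CG pairs. The windows are chr16:5884543-5884842 (plus strand) for Rbfox1, chr6:77979618-77979917 (minus strand) for Ctnna2, chr5:103211285-103211584 (minus strand) for Mapk10 and chr16:39984114-39984413 (plus strand) for Lsamp.
Rbfox1: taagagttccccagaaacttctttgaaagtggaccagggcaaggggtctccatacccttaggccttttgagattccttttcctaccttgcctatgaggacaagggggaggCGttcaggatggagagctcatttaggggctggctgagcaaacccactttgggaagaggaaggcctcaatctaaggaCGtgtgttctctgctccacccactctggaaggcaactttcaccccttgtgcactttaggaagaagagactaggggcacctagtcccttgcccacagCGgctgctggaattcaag
Ctnna2: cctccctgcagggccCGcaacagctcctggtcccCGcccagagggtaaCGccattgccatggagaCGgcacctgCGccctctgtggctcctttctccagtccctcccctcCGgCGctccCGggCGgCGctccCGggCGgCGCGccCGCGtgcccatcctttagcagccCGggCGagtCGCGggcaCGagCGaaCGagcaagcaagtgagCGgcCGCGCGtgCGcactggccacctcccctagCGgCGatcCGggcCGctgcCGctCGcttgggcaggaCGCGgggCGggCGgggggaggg
Mapk10: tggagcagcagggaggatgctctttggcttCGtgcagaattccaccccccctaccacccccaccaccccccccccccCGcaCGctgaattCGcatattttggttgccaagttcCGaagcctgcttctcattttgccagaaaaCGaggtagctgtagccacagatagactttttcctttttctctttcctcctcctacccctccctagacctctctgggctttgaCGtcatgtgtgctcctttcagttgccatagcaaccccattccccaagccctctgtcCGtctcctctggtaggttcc
Lsamp: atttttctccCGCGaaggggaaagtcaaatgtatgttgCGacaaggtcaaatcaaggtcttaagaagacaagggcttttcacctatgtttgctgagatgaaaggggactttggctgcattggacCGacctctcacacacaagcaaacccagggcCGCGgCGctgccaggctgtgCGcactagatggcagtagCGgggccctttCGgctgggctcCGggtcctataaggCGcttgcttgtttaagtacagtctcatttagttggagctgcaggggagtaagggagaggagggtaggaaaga
The window of Ctnna2 held 38 CG pairs, that of Lsamp 12, that of Mapk10 8 and that of Rbfox1 3, against a median of 7 over the 32851 promoters of the RefSeq table. At these starts the 3 genes that were lower together thus had windows on either side of that median. The other listed start held 7 CG pairs for Rbfox1 and 2 for Mapk10, so the counts depend on the start taken. The left part of the element bound by REST, a repressor of neuronal genes (TTCAGCACC, either strand), was in 0 of the 15 windows and in 0.371% of all promoters. The right part (GGACAGC, either strand) was in 0 of the 15 windows and in 6.56% of all promoters, and TATAAA was in 2 of the 15 and 13.6% of all.

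**Figure D1:**
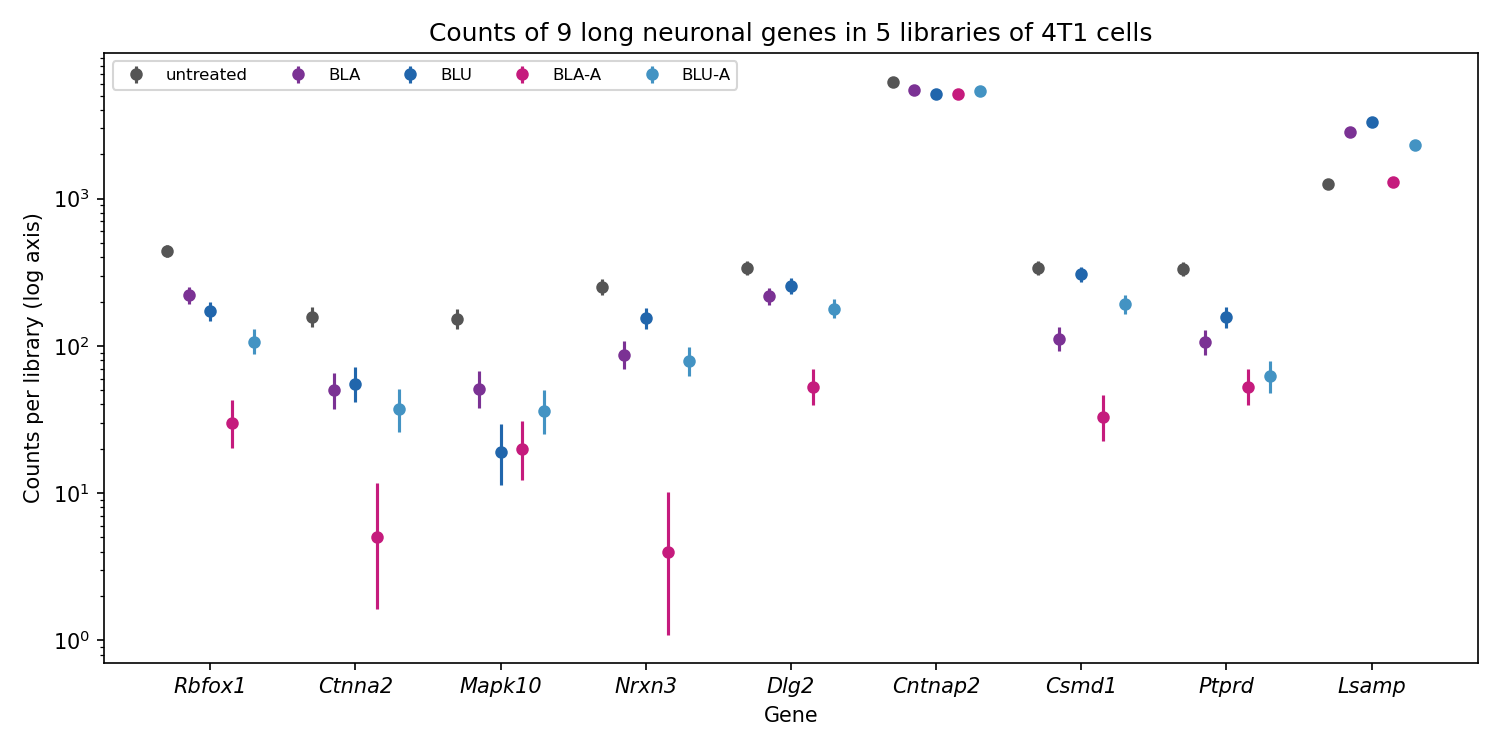
Counts of the 9 genes (x axis) in the 5 libraries (y axis, log scale), with points for the mean of the 3 columns of a group and bars for the exact 95% Poisson interval. Cntnap2 and Lsamp sit above 1000 counts in each library, and the other 7 genes lie between 4 and 439 counts.

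The name given to this group, genes read at a low level, held for 7 of the 9. In untreated cells these 7 had from 153 counts (Mapk10) to 439 counts (Rbfox1), or 5.73 to 16.5 CPM, which are counts scaled to library size by TMM. Cntnap2 stood at 6171 counts (232 CPM) and Lsamp at 1262 counts (47.3 CPM) in the same library. All 9 genes passed the filter of at least 1 CPM in at least 1 library, as did 17594 of the 40402 genes. Per 100 kb of span, the 7 low genes had from 0.54 CPM (Ctnna2) to 1.89 CPM (Mapk10), Lsamp 7.30 CPM and Cntnap2 10.3 CPM. Of the 590 kept genes that span at least 300 kb, 72 had a lower level per length than Ctnna2 and 441 a lower one than Cntnap2.

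Rbfox1 had 435, 432 and 450 counts in the columns of untreated cells, 213, 228 and 224 in BLA and 33, 24 and 32 in BLA-A. The blueberry columns held 175, 163 and 178 counts (BLU) and 115, 101 and 104 counts (BLU-A). Every treated column was below every untreated one, and BLA-A was the lowest group. As libraries, this was 16.5 CPM in untreated cells against 8.14 (BLA), 6.24 (BLU), 1.28 (BLA-A) and 4.02 CPM (BLU-A). The ratio of treated to untreated was 0.379 in BLU (0.316 to 0.453), 0.494 in BLA (0.419 to 0.583), 0.244 in BLU-A (0.196 to 0.303) and 0.0777 in BLA-A (0.0524 to 0.114). On the log2(CPM + 0.5) scale used for calls, with a threshold of 1 in size, BLA at -0.97 lay just inside the threshold and BLU at -1.33, BLU-A at -1.91 and BLA-A at -3.25 were past it.

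Ctnna2 had 150, 159 and 165 counts in untreated cells, 51, 60 and 54 in BLU, 48, 49 and 53 in BLA, 42, 40 and 29 in BLU-A and 9, 5 and 2 in BLA-A. The groups given an extract overlapped each other, and BLA-A stood below all. The ratio to untreated was 0.337 in BLU (0.243 to 0.460), 0.310 in BLA (0.221 to 0.428) and 0.235 in BLU-A (0.160 to 0.339). In BLA-A it was 0.0388 (0.0117 to 0.0867), which rests on a mean of 5 counts. The log2 fold changes ran from -1.36 in BLU to -3.14 in BLA-A.

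Mapk10 had 151, 158 and 149 counts in untreated cells, 18, 21 and 19 in BLU, 55, 49 and 49 in BLA, 38, 35 and 34 in BLU-A and 26, 14 and 20 in BLA-A. Here BLU was as low as BLA-A, which sets Mapk10 apart from the other low genes by its order of levels. The ratio to untreated was 0.122 in BLU (0.0704 to 0.194), 0.151 in BLA-A (0.0893 to 0.240), 0.235 in BLU-A (0.160 to 0.342) and 0.327 in BLA (0.233 to 0.451). The log2 fold changes were -2.37, -2.19, -1.75 and -1.39 in that order.

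Nrxn3 had 250 counts in untreated cells, 87 in BLA, 154 in BLU, 79 in BLU-A and 4 in BLA-A. The columns of BLA-A held 3, 3 and 5 counts, the smallest values of any of the 9 genes bar Ctnna2. Its ratio of BLA-A to untreated was 0.0169 (0.00497 to 0.0477), and its log2 fold changes were -0.70 in BLU, -1.41 in BLA, -1.51 in BLU-A and -3.91 in BLA-A.

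Ptprd had 335 counts in untreated cells, 156 in BLU, 106 in BLA, 62 in BLU-A and 53 in BLA-A. Both nanoparticle libraries were about equally low, with log2 fold changes of -2.22 in BLA-A and -2.20 in BLU-A beside -1.57 in BLA and -1.09 in BLU.

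Dlg2 had 337 counts in untreated cells, 217 in BLA, 256 in BLU, 179 in BLU-A and 53 in BLA-A. Only BLA-A passed the threshold among its 4 treatments, at -2.24, and the other log2 fold changes were -0.42 in BLU, -0.64 in BLA and -0.86 in BLU-A.

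Csmd1 had 339 counts in untreated cells, 307 in BLU, 112 in BLA, 192 in BLU-A and 33 in BLA-A. It was near its untreated level in BLU, where the ratio of 0.876 had an interval of 0.748 to 1.03. The log2 fold changes were -0.18 in BLU, -1.52 in BLA, -0.77 in BLU-A and -2.78 in BLA-A.

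Cntnap2, the most counted of the 9 genes, had 6171 counts in untreated cells, 5122 in BLU, 5450 in BLA, 5373 in BLU-A and 5152 in BLA-A. Its levels stayed within a narrow range, with log2 fold changes from -0.32 in BLU to -0.06 in BLA-A. The BLA-A value was -0.25 when libraries were scaled by their total counts.

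Lsamp ran the other way. Its columns held 1269, 1246 and 1270 counts in untreated cells, 3308, 3322 and 3312 in BLU, 2834, 2848 and 2840 in BLA, 2289, 2334 and 2334 in BLU-A and 1295, 1295 and 1303 in BLA-A. BLA, BLU and BLU-A stood clear above untreated cells, and BLA-A only slightly above. The ratio to untreated was 2.54 in BLU (2.38 to 2.71), 2.20 in BLA (2.06 to 2.36), 1.85 in BLU-A (1.72 to 1.98) and 1.18 in BLA-A (1.09 to 1.28). The log2 fold changes were 1.34, 1.13, 0.88 and 0.24 in that order, of which BLU and BLA were past the threshold. The BLA-A value was 0.05 when libraries were scaled by their total counts.

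**Figure D2:**
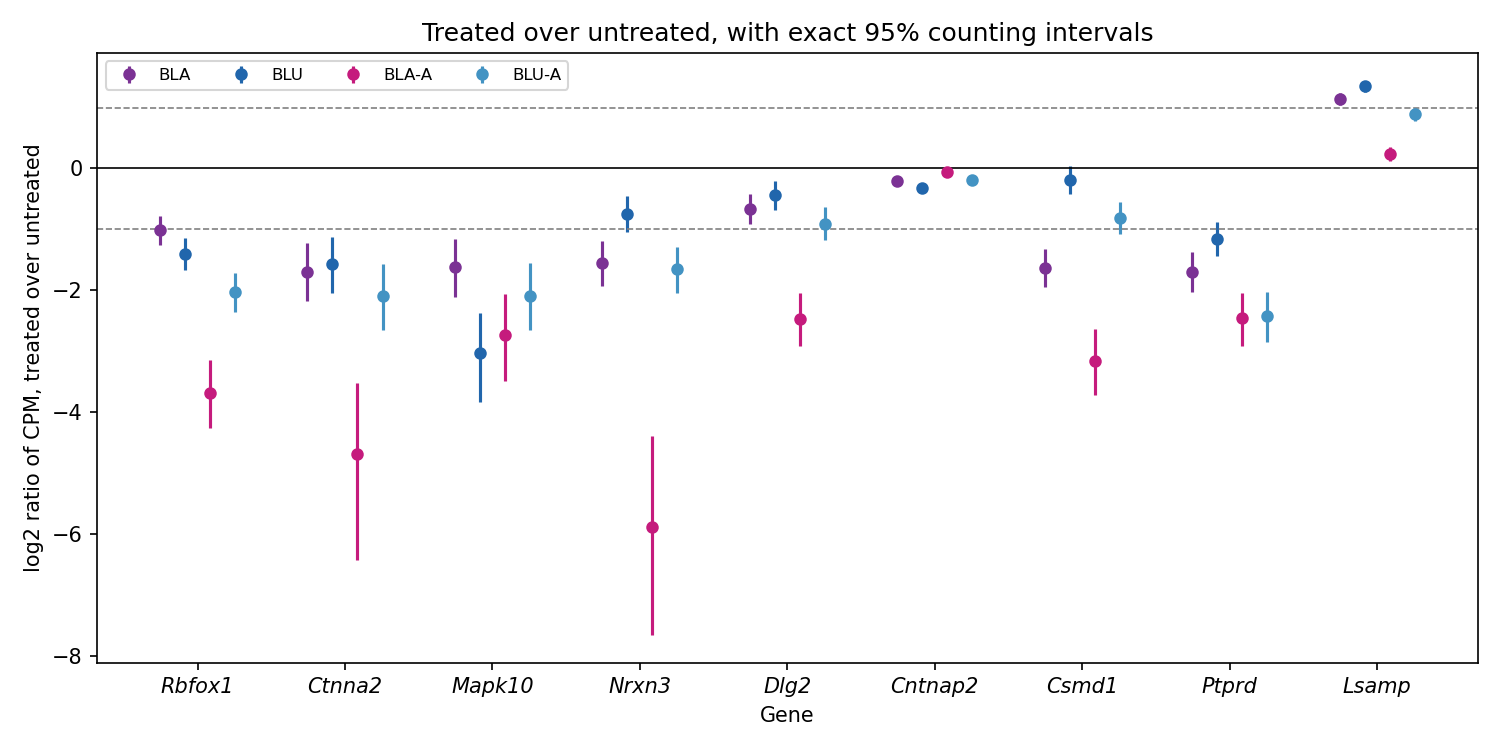
Ratio of treated to untreated CPM on a log2 axis for each of the 9 genes, with exact 95% counting intervals. The solid line is no difference and the dashed lines are a log2 ratio of 1 in size. The 7 low genes lie below 0 in each treatment, Cntnap2 lies close to 0 and Lsamp lies above it.

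Counted by treatment, 5 of the 9 genes were lower past the threshold in BLA, where 8.5% of all kept genes were, and 4 of 9 were in BLU, against 4.61%. In BLA-A, 7 of 9 were lower, against 12.3% of all genes, and in BLU-A 5 of 9, against 4.48%. Over all genes in BLA-A, 2171 were lower and 1505 higher past the threshold, against 2689 and 1070 under scaling by total counts, where the median over all genes was -0.18. Lsamp was the 1 gene higher past the threshold in BLA (7.91% of all genes) and in BLU (5.64%). None of the 9 was higher past it in BLA-A (8.55% of all genes) or BLU-A (3.39%). Ctnna2, Mapk10 and Ptprd were lower past the threshold in all 4 treatments, as were 1.35% of all genes. The 8 genes other than Lsamp were below untreated cells in all 4 treatments at any size, as were 19.3% of all genes. Nothing about the 9 genes is read from these shares, since the choice of genes used the same contrast. The median log2 fold change of the 9 was -0.70 in BLU, -1.39 in BLA, -1.51 in BLU-A and -2.24 in BLA-A, while the median of all genes was within 0.02 of 0.

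The treated libraries can be set against each other. The choice of genes did not name this contrast but used the same treated libraries, so these ratios too are a description. BLA-A was below BLA past the threshold for 5 of the 9 genes (13% of all genes), namely Rbfox1, Ctnna2, Nrxn3, Dlg2 and Csmd1. The ratio of BLA-A to BLA was 0.157 for Rbfox1 (0.105 to 0.233), 0.125 for Ctnna2 (0.0366 to 0.293) and 0.0493 for Nrxn3 (0.0144 to 0.143). Lsamp was also lower in BLA-A than in BLA, at 0.537 (0.502 to 0.574), and Cntnap2 was slightly higher, at 1.11 (1.07 to 1.15).

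With blueberry the nanoparticle and the extract were closer. BLU-A was below BLU past the threshold for 1 of the 9 genes, Ptprd, against 3.79% of all genes, with a ratio of 0.416 (0.303 to 0.558). The ratio of BLU-A to BLU was 0.645 for Rbfox1 (0.503 to 0.828) and 0.699 for Ctnna2 (0.448 to 1.08), an interval that includes 1. Mapk10 was higher in BLU-A than in BLU, at 1.92 (1.10 to 3.63).

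Between the extracts, BLA was below BLU past the threshold for 1 of the 9 genes, Csmd1, at a ratio of 0.370 (0.295 to 0.460), against 6.25% of all genes. Mapk10 was higher in BLA than in BLU, at 2.67 (1.58 to 4.87), and Ctnna2 could not be told apart between them, at 0.920 (0.614 to 1.37). Between the nanoparticles, BLA-A was below BLU-A past the threshold for 5 of the 9 genes (10.4% of all genes). The ratio of BLA-A to BLU-A was 0.0531 for Nrxn3 (0.0154 to 0.154), 0.979 for Ptprd (0.665 to 1.43) and 0.641 for Mapk10 (0.349 to 1.13). These pairs differ by library as well as by treatment, and BLA-A was the lowest library for 6 of the 9 genes and for 32.8% of all kept genes.

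The closest relatives of each gene give its family's level in these cells. Of the Rbfox genes, Rbfox2 had 5792 counts in untreated cells and log2 fold changes from 0.19 to 0.63, whereas Rbfox3, known as the neuronal marker NeuN, had 156 counts and was at -1.30 in BLU, -1.80 in BLA, 0.12 in BLU-A and -2.57 in BLA-A. Of the catenins, Ctnna1, the alpha-catenin of epithelia, had 10124 counts and Ctnnal1 3137, with log2 fold changes from -0.24 to 0.20 for the pair. Ctnna3, which spans 1580 kb, had 227 counts and log2 fold changes from -1.09 to -2.88. Of the JNK kinases, Mapk8 (JNK1) had 1269 counts and Mapk9 (JNK2) 1355, with log2 fold changes from -0.32 to 0.84. Per 100 kb of span in untreated cells, Rbfox1 stood at 0.78 CPM beside 95.3 for Rbfox2 and 1.39 for Rbfox3, Ctnna2 at 0.54 beside 235 for Ctnna1 and 0.54 for Ctnna3, and Mapk10 at 1.89 beside 68.7 for Mapk8 and 122 for Mapk9. In the Rbfox, alpha-catenin and JNK families the gene described here was thus far below the most expressed relative. This did not hold for all 9 genes. By counts in untreated cells, Lsamp (1262), Cntnap2 (6171) and Csmd1 (339) stood above their listed relatives, whereas Nrxn3, Dlg2 and Ptprd stood below a relative. Per 100 kb, Cntnap2 and Csmd1 stood below Cntnap1 (60.8 CPM) and Csmd2 (1.48 CPM).

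The relatives number 27 in all, and most of the long ones among them were lower in BLA and BLA-A. The 12 relatives that span at least 300 kb had median log2 fold changes of -0.82 in BLU, -1.59 in BLA, -1.11 in BLU-A and -2.60 in BLA-A, and 4 were lower past the threshold in BLU, 9 in BLA, 7 in BLU-A and 11 in BLA-A. The 15 shorter relatives had at least 347 counts in untreated cells except Nrxn2, Cntnap3 and Iglon5, which had 20, 38 and 12. Of these 15, 14 passed the filter, and 0 of these 14 were lower past the threshold in any treatment. Cntnap3 was still below untreated cells in each treatment, at -0.47 in BLA to -0.91 in BLA-A. So was Iglon5, which did not pass the filter, at -0.34 in BLU-A to -0.93 in BLA. Nrxn2 ran from -0.53 in BLA-A to 0.92 in BLU-A. At such low counts the 0.5 CPM added to each value pulls fold changes towards 0. Ptprf, a phosphatase of the same class as Ptprd, was higher in BLA-A at 1.08, a value of 0.89 under scaling by total counts. Ptprs of the same class had the highest level per length, 565 CPM per 100 kb. Ntm, an IgLON relative of Lsamp, had the lowest mean log2 fold change of the relatives, going from 266 counts to 150 in BLU, 16 in BLA, 81 in BLU-A and 1 in BLA-A.

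**Figure D3:**
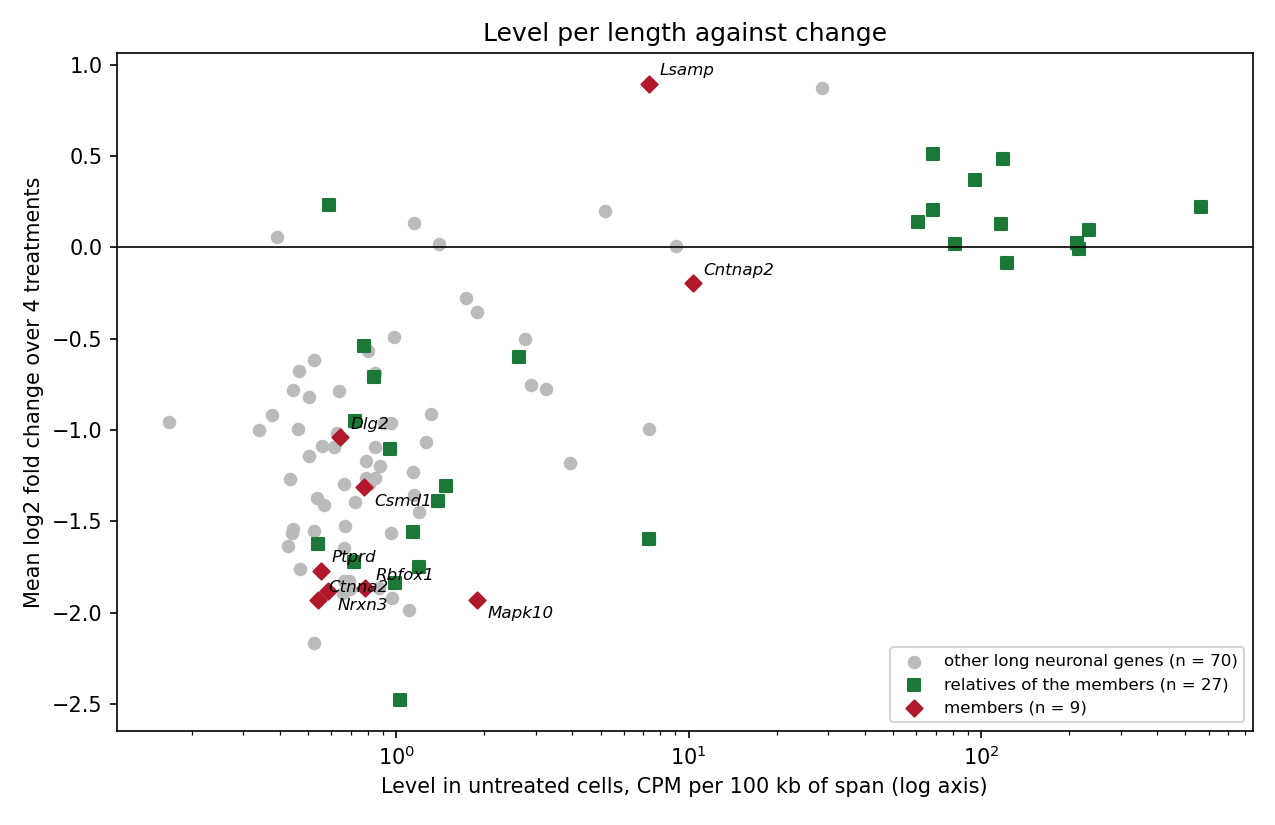
Mean log2 fold change over the 4 treatments (y axis) against the level in untreated cells in CPM per 100 kb of span (x axis, log scale), for the 9 genes (red diamonds), their 27 relatives (green squares) and 70 other long neuronal genes (grey), 7 of which are also relatives. Most genes under 2 CPM per 100 kb lie below 0, and genes above 50 lie near or above 0.

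A wider list of 70 other long neuronal genes, of which 7 are also among the relatives, was read for comparison. Of the 69 that passed the filter, 13 were lower past the threshold in BLU, 35 in BLA, 23 in BLU-A and 61 in BLA-A. The medians were -0.57, -1.03, -0.76 and -2.36 in that order. Tenm4, a teneurin, was the exception in BLA at 1.12 and had the highest level per length of the list. The exception in BLU-A was Grm7, a glutamate receptor gene, with 96 counts in untreated cells and 2519 in BLU-A. Grm7 was named after its values were seen.

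The partners of these proteins were mixed. Of 34 synaptic adhesion and scaffold partners, 23 passed the filter, and 4 were lower past the threshold in BLU, 7 in BLA, 6 in BLU-A and 11 in BLA-A. A single gene was higher past it, in each treatment but BLA-A. That gene was Lrrtm2, a postsynaptic partner of neurexins, which had 77 counts in untreated cells, 492 in BLU, 306 in BLA, 284 in BLU-A and 127 in BLA-A. Its relative Lrrtm3 went from 56 counts in untreated cells to 6 in BLU and BLU-A, 5 in BLA and 0 in BLA-A. Genes that overlap Lrrtm2 and Lrrtm3 were not looked at, so their counts may include reads of other genes.

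The JNK cascade is the pathway in which Mapk10 acts. Of 22 of its genes that passed the filter, 0 were lower past the threshold in any treatment and 4 were higher in BLA-A, namely Map3k12, Dusp1, Dusp10 and Jund, at 1.26, 2.04, 1.01 and 1.57, which were named after their values were seen. Dusp10 was at 0.82 under scaling by total counts, so that 3 of the 4 remained past the threshold. The medians ran from 0.04 in BLU-A to 0.24 in BLA-A. Jun, the transcription factor after which the kinases are named, had 8372 counts in untreated cells and log2 fold changes from -0.28 to 0.13. Of 11 catenins and partners of adherens junctions, at most 2, Ctnnd2 and Cdh3, were lower past the threshold in any treatment. Ctnnd2, the neuronal delta-catenin, had the lowest mean log2 fold change of these, going from 226 counts to 115 in BLU, 71 in BLA, 92 in BLU-A and 11 in BLA-A, while Ctnnb1 (beta-catenin) ranged from -0.15 to 0.42.

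By its markers the line was epithelial. Of 9 mammary carcinoma markers, 7 had at least 1 CPM in each library, among them Krt18, with 15243 counts in untreated cells, and Epcam, with 1835, and Krt5 was at 0. Of 23 neuron markers, 8 had at least 1 CPM in untreated cells and 3 to 9 in treated ones. Their summed level was 97.6 CPM in untreated cells, 101 in BLU, 94.98 in BLA, 105 in BLU-A and 129 in BLA-A. Most of that sum came from Map2 and Syn1, and Syn1, a synaptic vesicle protein, stood at 83.1 CPM in BLA-A against 34.5 without treatment. Genes that overlap the markers were not looked at, so the Syn1 counts may include reads of another gene. Of the 10 neuron markers that passed the filter, 3 were lower past the threshold in BLU, 4 in BLA, 1 in BLU-A and 5 in BLA-A, where the median log2 fold change was -0.93 and Syn1 was the 1 marker higher. Rbfox3, given above, and Dcx, a microtubule protein of young neurons, were lower past it in BLU, BLA and BLA-A, and Syt1, a calcium sensor of synaptic vesicles, in BLA at -1.78 and in BLA-A at -2.17. These markers were named after their values were seen, and their part in the differences of the 9 genes was not tested. Nefl, the neurofilament light chain, was at 0 in every library, and Tubb3, Snap25, Syp and Stmn2 had at most 25 counts in any. The 8 glia markers summed to 40.5 CPM in untreated cells and 38.4 to 66.1 CPM in treated ones, most of it from Mbp, and Olig1 was at 0 throughout. The 10 fibroblast, endothelial and leukocyte markers summed to 97.4 CPM in untreated cells and 91.8 to 106 CPM in treated ones, most of it from Pdgfra, and Lyz2 was at 0 throughout. In bulk RNA, fewer cells that express a gene and less RNA per cell cannot be told apart.

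The share of lower genes moved with span among the 16355 of the 17594 kept genes that have a GENCODE span. Among kept genes under 10 kb, 4.32% were lower past the threshold in BLU, 8.80% in BLA, 2.17% in BLU-A and 7.41% in BLA-A. Among the 58 genes over 1000 kb, 7 of them among the 9 described here, the shares were 19.0%, 46.6%, 29.3% and 75.9%. The share grew in each step from 10 to 50 kb upwards in all 4 treatments. Below 1000 kb, long genes went both ways in BLA and BLU. From 300 to 1000 kb, 13.9% were higher past the threshold in BLA beside 31.0% lower. In BLU 9.21% were higher beside 12.2% lower, and the median was 0.05. In BLA-A 50.8% of this bin were lower and 2.44% higher, with a median of -1.07. In BLU-A 20.7% were lower and 3.20% higher, with a median of -0.19. From 100 to 300 kb the median was 0.21 in BLA, 0.23 in BLU, 0.10 in BLU-A and -0.12 in BLA-A. Over 1000 kb, at most 3.45% were higher in any treatment.

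**Figure D4:**
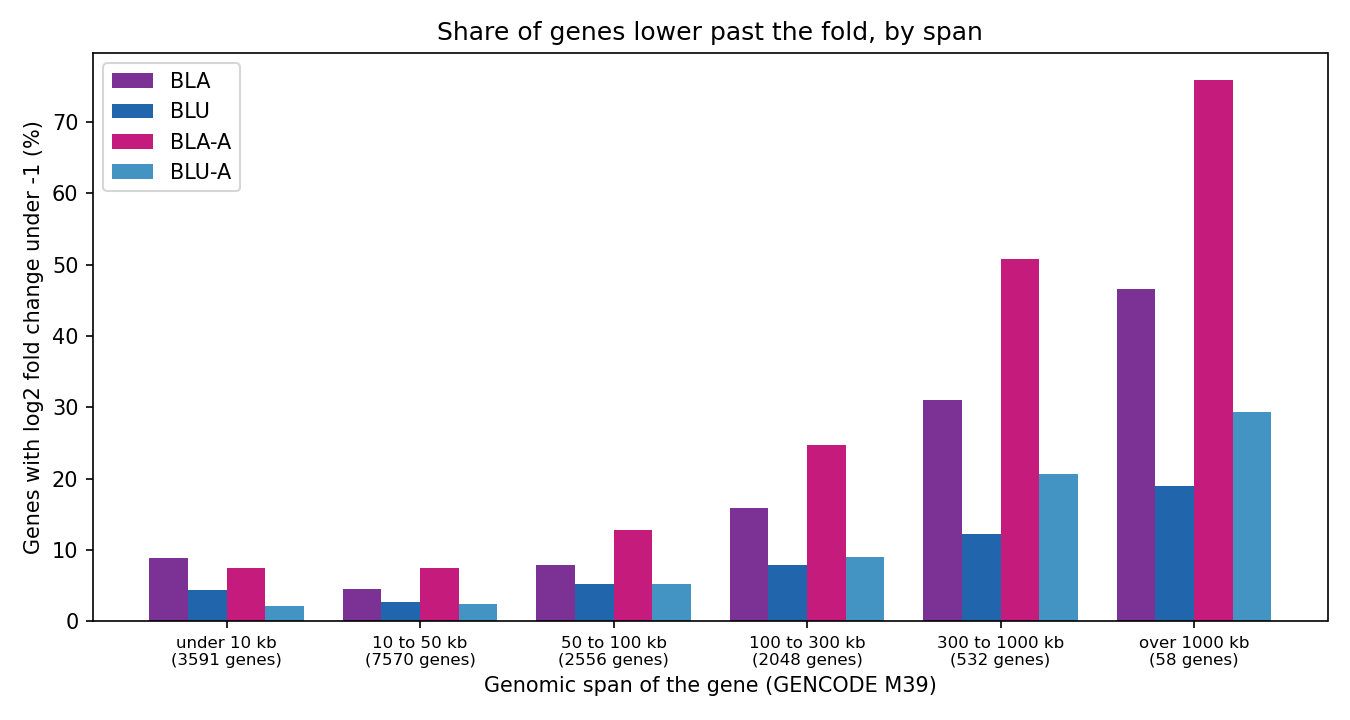
Share of kept genes with a log2 fold change under -1 (y axis, percent) by genomic span (x axis, with the number of genes in each bin) for the 4 treatments. In BLA-A the share is 7.41% in the bin of the shortest genes and 75.9% in the bin of the longest.

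Span and level were also read together. Of the 325 genes that span at least 300 kb and had 1 to 10 CPM in untreated cells, which include Ctnna2, Mapk10 and Nrxn3, 20.6% were lower past the threshold in BLU, 53.8% in BLA, 34.5% in BLU-A and 80.3% in BLA-A. The 5047 genes in the same range of 1 to 10 CPM but of shorter span had shares of 10.9%, 18.2%, 10.2% and 21.8%. Levels were not matched within that range. Genes lower past the threshold in all 4 treatments made up 10.2% of the 325 and 3.15% of the 5047.

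Genes of olfactory and vomeronasal receptors, which work in sensory neurons of the nose, give the count density in genes not tied to this tissue. The table lists 1463, of which 1453 have a GENCODE span. Together they held 20.9 counts per 100 kb in untreated cells, 16.9 in BLU, 13.2 in BLA, 13.4 in BLU-A and 7.58 in BLA-A. A single gene, Vmn2r13, held 293 to 466 counts in each library. In untreated cells it held 348 of the 2623 counts over all receptor genes, so most lay in other receptor genes. Restricted, after the data were seen, to the 1369 with under 10 counts in every library, the density was 5.83 in untreated cells, 2.53 in BLU, 1.05 in BLA, 2.77 in BLU-A and 0.557 in BLA-A. The ratio of treated to untreated in these receptor genes, on the TMM scale, was 0.419 in BLU (0.361 to 0.484), 0.177 in BLA (0.144 to 0.217), 0.477 in BLU-A (0.414 to 0.549) and 0.110 in BLA-A (0.0834 to 0.144).

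Where the 7 low genes stood against the receptor genes depended on which receptor genes were summed. They had 14.4 to 50.3 counts per 100 kb in untreated cells. Against the density over all receptor genes there, 20.9, Mapk10 alone was above and the other 6 were below. Rbfox1 (20.8) and Csmd1 (20.6) were almost level with it. The authors counted on RefSeq features while the spans are from GENCODE, so such close ranks could change. Against the restricted density of 5.83 all 7 were above. In BLA-A the 7 genes had 0.227 to 6.59, and all were below the density over all receptor genes, 7.58, while Nrxn3 and Ctnna2 were below the restricted one, 0.557. In BLU-A all 7, at 2.75 to 11.7, were below 13.4, and Ptprd, at 2.75, was level with the restricted density of 2.77.

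Summed, the 7 low genes were at 75.4 CPM in untreated cells and 1.86-fold lower in BLU, 2.43-fold lower in BLA, 2.89-fold lower in BLU-A and 8.83-fold lower in BLA-A. All receptor genes together were 1.28-, 1.61-, 1.55- and 2.39-fold lower in the same order, and the restricted set 2.39-, 5.66-, 2.10- and 9.10-fold lower. With either set of receptor genes, they and the 7 low genes were both highest in untreated cells and both lowest in BLA-A. Their part in the differences of the 7 low genes was not tested. Cntnap2 and Lsamp had at least 194 counts per 100 kb in each library.

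**Figure D5:**
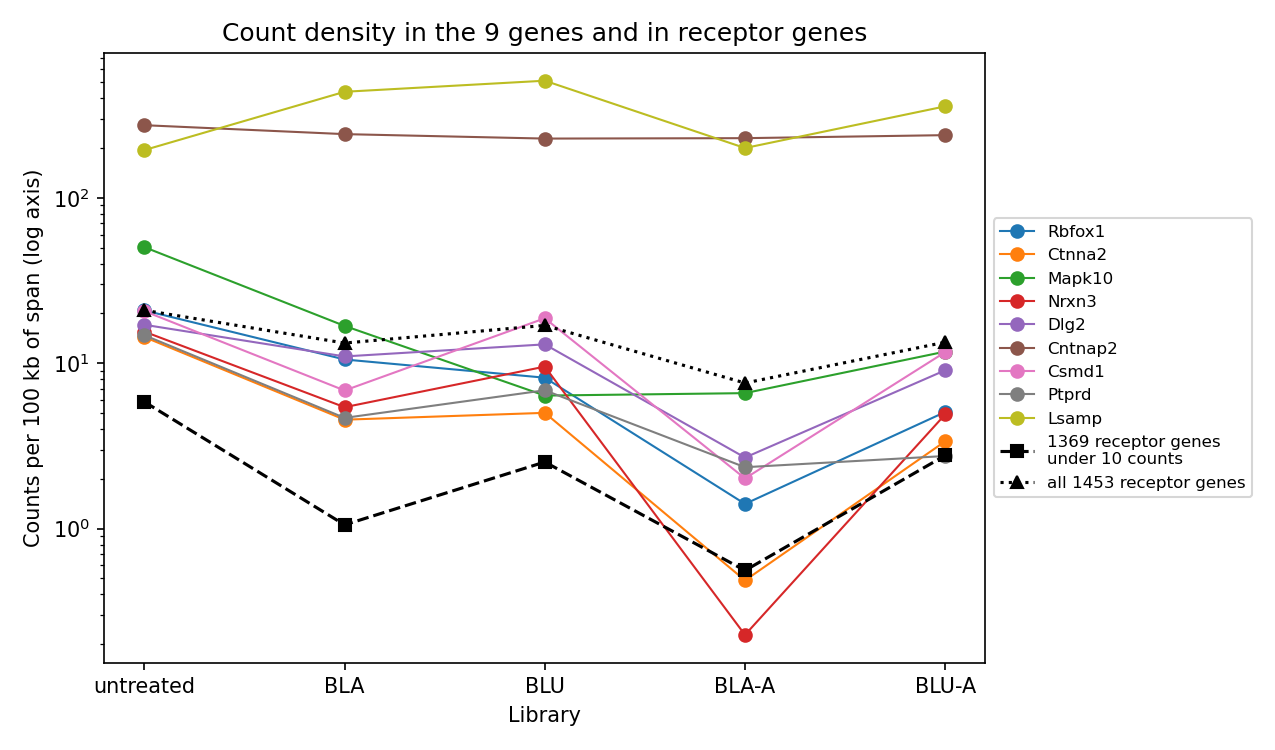
Counts per 100 kb of span (y axis, log scale) in the 5 libraries (x axis) for the 9 genes and for 1369 receptor genes with under 10 counts in every library (black squares, dashed) and all 1453 with a span (black triangles, dotted). Lines join the values of a gene and imply no order. In BLA-A, Nrxn3 and Ctnna2 lie below the restricted receptor genes, at 0.227 and 0.486 against 0.557, and 7 genes lie below all receptor genes, at 7.58.

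Genes that lie inside the 9 had few counts. Of the annotated genes that overlap them and are in the table, 5 had over 5 counts in some library, all on the opposite strand. The most counted was Gm16347 in Csmd1, with 40 counts in BLU, where Csmd1 had 307. Gm40537 in Nrxn3 had 19 counts in untreated cells and 0 in BLA-A. Reads of opposite strands may not be told apart in these counts, since B2m had 8432 counts and Patl2, which overlaps it on the other strand, 8649 in untreated cells. Overlap was looked at only for the 9 genes, so counts of other genes named here may include reads of genes that overlap them.

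The genes whose pattern over the 5 libraries was most like that of Rbfox1, by the root mean square difference of centred log2(CPM + 0.5) among 17585 genes, were D130009I18Rik (0.126), Galnt13 (0.190) and Zmat4 (0.227). D130009I18Rik stood at 9.68 CPM in untreated cells and at 4.37 CPM in BLU, 5.46 in BLA, 2.99 in BLU-A and 0.820 in BLA-A. Galnt13, an enzyme that starts O-linked glycosylation, stood at 4.28 CPM in untreated cells and 0.0719 CPM in BLA-A, which is below the 0.129 CPM that 3 counts are worth there.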

How the data were processed

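Bulk RNA-seq was measured in 4T1 cells, in 3 columns for each of 5 groups. The authors removed ribosomal RNA, merged the mates of each pair, used STAR for alignment to GRCm39 and OmicsBox for counting on features of type gene, introns included. The deposited values are raw counts, with no normalization, for 40402 genes. A further pair of deposited tables holds the authors' own fold changes, p-values and enrichment scores and was not used.

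The columns of a group were averaged to 1 library, because a chi-square test over genes averaging 10 counts or more gave under 1.5 per degree of freedom. A gene was kept if some library had 1 CPM or more of it, which left 17594. Scaling used TMM in edgeR 4.0.16 (R 4.3.3), and fold changes are log2 of CPM with 0.5 added to each. A gene was past the fold at a log2 fold change over 1 in size. No test was run, since each group has 1 library. Count intervals are exact Poisson and ratio intervals exact conditional binomial (scipy 1.17.1). Reads without molecular identifiers are not independent molecules. The floor of 3 counts is worth 0.109 to 0.129 CPM. Spans came from GENCODE M39, which names 34459 of the 40402 genes. The fold change and interval code was tested on simulated data.

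The members and lists were chosen with earlier results of these data known. Named genes are the 9 genes and, from each list, those highest and lowest per length in untreated cells and those with the largest fall and rise in the mean log2 fold change (at least 10 counts in untreated cells), plus all relatives of Rbfox1, Ctnna2 and Mapk10 and the 3 genes most like Rbfox1. Others named were chosen after their values were seen. Alternatives covered the scaling (DESeq2 1.42.0 size factors, total counts), the pseudocount, the filter and leaving out a column.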

Additional observations from a re-analysis of the deposited data

How the results depend on the processing

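No paired analysis was possible because the results come from no test and the columns of a group differed by less than sampling noise and were used as 1 library. Across all alternatives tried, the number of the 9 genes lower past the threshold was 4 in BLU, 5 or 6 in BLA, 5 in BLU-A and 7 in BLA-A. The sixth gene in BLA was Rbfox1, which passed under total counts, under a pseudocount of 0.1 and without the second column. The counts of genes higher past it did not change. Leaving out 1 column of each group left these counts at 5 to 6 in BLA and moved the log2 fold changes of the 9 genes by -0.20 to 0.17. With a pseudocount of 0.1 they moved by up to -1.29 and with 1 by up to 0.74.

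The number of all genes past the threshold was 1804 in BLU and 1384 in BLU-A. It was 2720 and 2336 with a pseudocount of 0.1 and 1003 and 671 with a pseudocount of 1. Density in receptor genes per 100 kb was 20.9, 13.2, 16.9, 7.58 and 13.4 over all of them in untreated, BLA, BLU, BLA-A and BLU-A, and 5.83, 1.05, 2.53, 0.557 and 2.77 without those of 10 or more counts in any library, an alternative chosen after seeing the data. In BLA-A, values of Ctnna2 and Nrxn3 rest on 4 to 5 counts, which limits their fold changes most.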
